A study of Drosophila melanogaster with 8 samples.

Results

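The 10 genes described here encode acid glycosidases of the Drosophila lysosome: 6 alpha-mannosidases (LManI, LManII, LManIII, LManIV, LManV and LManVI), 2 beta-hexosaminidases (Hexo1 and Hexo2) and 2 glucocerebrosidases (Gba1a and Gba1b). They were picked by symbol from the 16018 genes of the deposited table, and all 10 were found. A total of 9 were among the 12570 genes tested, which had at least 1 CPM (reads of a gene scaled to library size) in at least 2 libraries. LManIV fell below that level and is described by its reads. The 10 genes were chosen with measured values of these same libraries known, so their differences between groups are a description and are given without a test of their own.

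Lysosomal alpha-mannosidases remove mannose from the glycans of proteins that are broken down in the lysosome, and loss of the human enzyme MAN2B1 causes alpha-mannosidosis. Beta-hexosaminidases remove terminal N-acetylhexosamines from glycans and, in humans, from gangliosides, and their loss causes Tay-Sachs and Sandhoff disease. Glucocerebrosidases cleave glucosylceramide to glucose and ceramide. In flies Gba1b is the broadly expressed glucocerebrosidase and Gba1a is mainly an enzyme gene of the gut. Somatic cyst cells enclose the developing germ cells of the testis, and they take up and digest germ cells that die.

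Poly(A)+ RNA was sequenced from fly testes with a directional library kit, in 4 groups of 2 libraries, biological replicates by their labels. The tj-GAL4 sorted group held GFP-positive cells of flies carrying tj-GAL4 (Kyoto stock) and UAS-GFP (Bloomington stock), and the tj-GAL4 unsorted group was the cell suspension of the same cross. The eya-GAL4 sorted and eya-GAL4 unsorted groups came likewise from eya-GAL4 (the line of Leatherman and Dinardo) crossed to the same UAS-GFP. The GFP transgene was thus present in every group, and a sort collects whichever cells have an active driver. traffic jam (tj) is known from early cyst cells and eyes absent (eya) from more mature ones. The labels give no age of the flies.

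Gene counts ran from 10771009 to 25344721 per library. The driver genes checked the sorts: tj was 4.42 ± 0.44 higher on the log2 scale in tj-GAL4 sorted cells than in the unsorted suspension (SE, adjusted p = 0.0014 by edgeR), and eya was 1.86 ± 0.45 higher in eya-GAL4 sorted cells (adjusted p = 0.013). Both genes were higher in both sorts: tj rose by 3.06 ± 0.41 in eya-GAL4 sorted cells and eya by 2.63 ± 0.46 in tj-GAL4 sorted cells. The level of eya did not set the sorts apart. It was 212 and 147 CPM in tj-GAL4 sorted cells and 153 and 146 CPM in eya-GAL4 sorted cells. Of 8 early and 6 mature cyst cell markers none passed the threshold between the 2 sorted groups with all libraries in the fit. Only 0.111% of all genes tested passed it there, so this count does not show that the sorts were alike. The median log2 difference of the 8 early markers, tj-GAL4 sorted over eya-GAL4 sorted cells, was 1.15 with all libraries. It was 1.11 without tj-GAL4 unsorted replicate 2. Spermatocyte markers (12 found in the table, while rye was not found) summed to 653 and 1171 CPM in tj-GAL4 sorted cells, against 1983 and 826 CPM in tj-GAL4 unsorted cells. They summed to 542 and 423 CPM in eya-GAL4 sorted cells, against 1738 and 2016 CPM in eya-GAL4 unsorted cells. Spermatid markers (14) summed to 2734 and 4790 CPM in tj-GAL4 sorted cells, against 5340 and 8908 CPM in tj-GAL4 unsorted cells. In the eya-GAL4 strain they summed to 2754 and 2999 CPM in sorted cells, against 4372 and 5196 CPM in unsorted cells. Germline RNA was thus present in every library, and spermatid markers fell less than spermatocyte markers in eya-GAL4 sorted cells. In tj-GAL4 unsorted replicate 2 the 10 gut markers summed to 3293 CPM, against 30.6 to 267 CPM in the other libraries, and 336 of 7795 genes with at least 10 CPM were at least 3 times as high there as in every other library. Among 10 hemocyte markers (of phagocytic blood cells) the scavenger receptor gene crq had the highest sum over the libraries, and the other 9 summed to 93.5 and 76.5 CPM in tj-GAL4 sorted cells, against 344 and 57.9 CPM in tj-GAL4 unsorted cells. These 9 summed to 105 and 94.3 CPM in eya-GAL4 sorted cells, against 199 and 130 CPM in eya-GAL4 unsorted cells, while crq had 226 and 214 CPM in eya-GAL4 sorted cells, against 32.3 and 23.6 CPM in eya-GAL4 unsorted cells. In the tj-GAL4 strain crq had 153 and 108 CPM in sorted cells, against 38.4 and 59.1 CPM in unsorted cells. Of 7 markers of pigment and terminal epithelial cells, w carried most reads, with 198 and 196 CPM in tj-GAL4 sorted cells, against 136 and 393 CPM in tj-GAL4 unsorted cells. It had 269 and 285 CPM in eya-GAL4 sorted cells, against 15.3 and 21.2 CPM in eya-GAL4 unsorted cells, and the other 6 summed to 6.63 to 23.2 CPM over the 8 libraries. He and v were at 0 in at least 1 library, and the part of these other cells in the results was not tested. In these bulk samples, fewer cells of a type and less RNA per cell cannot be told apart.

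Gba1b, LManI and LManII were much higher in sorted than in unsorted cells of both strains, while Gba1a was not. Gba1b was 17.5-fold higher in tj-GAL4 sorted cells and 31.9-fold higher in eya-GAL4 sorted cells, each against its own suspension. LManII was 8.46-fold and 8.83-fold higher in the same comparisons, and LManI 10.7-fold and 5.80-fold higher. Hexo1 and Hexo2 were 4.60-fold and 3.54-fold higher in eya-GAL4 sorted cells, and 1.05-fold and 1.82-fold higher in tj-GAL4 sorted cells. Of the 4 mannosidase genes LManIII to LManVI, which lie side by side, none was called higher in either sort with all libraries in the fit. How far they fell in eya-GAL4 sorted cells depended on the libraries kept, and most on 1 unsorted library.

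**Figure D1:**
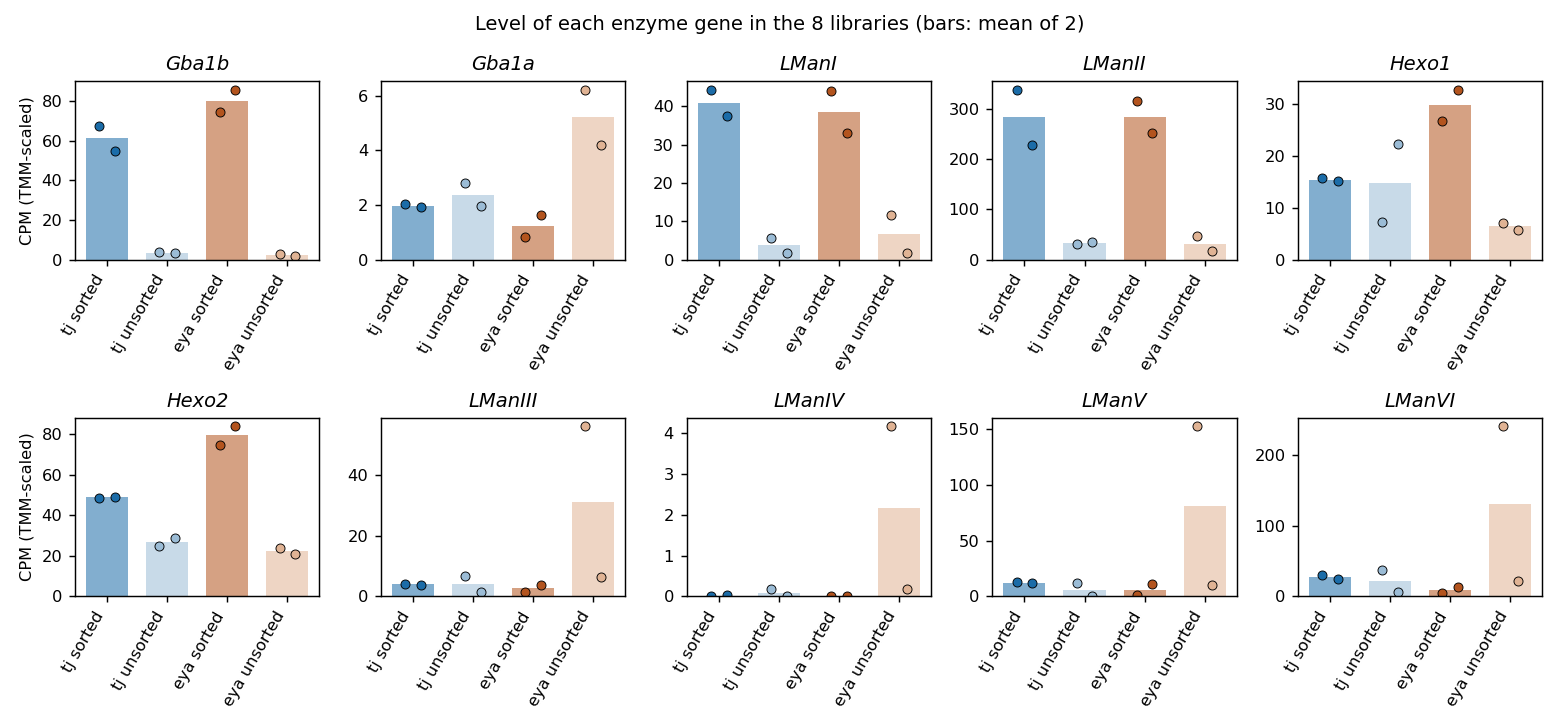
Level of each of the 10 enzyme genes as TMM-scaled CPM (linear axis from 0, its own scale in each panel) in tj-GAL4 sorted, tj-GAL4 unsorted, eya-GAL4 sorted and eya-GAL4 unsorted cells. Points are the 8 libraries and bars the mean of 2; Gba1b, LManI and LManII stand high in the 4 sorted libraries, whereas LManIII to LManVI stand high in 1 eya-GAL4 unsorted library.

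In tj-GAL4 sorted against unsorted cells, 3 of the 9 genes tested were called higher (Gba1b, LManI and LManII) and 0 lower, at an adjusted p under 0.05 in edgeR's quasi-likelihood fit over all genes. Across all genes tested, 8.98% were called higher and 2.38% lower. The median log2 fold change was 0.86 over the 9 genes and −0.08 over all genes. In eya-GAL4 sorted against unsorted cells, 5 of the 9 were called higher (Gba1b, LManI, LManII, Hexo1 and Hexo2) and 3 lower (Gba1a, LManIII and LManVI). The background there was 28.0% of all genes called higher and 20.0% lower, and the median was 1.83 over the 9 genes and −0.09 over all genes. Since the genes were chosen on these contrasts, nothing is read from the counts. Without tj-GAL4 unsorted replicate 2, Hexo1 and Hexo2 were also called higher in tj-GAL4 sorted cells, which made 5, with 25.0% of all genes called higher in that fit. Without tj-GAL4 sorted replicate 1 the single call was Gba1b, with 2.06% of all genes. Without eya-GAL4 unsorted replicate 3, 4 genes were called higher and 0 lower in eya-GAL4 sorted cells, with 13.3% and 4.59% of all genes.

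**Figure D2:**
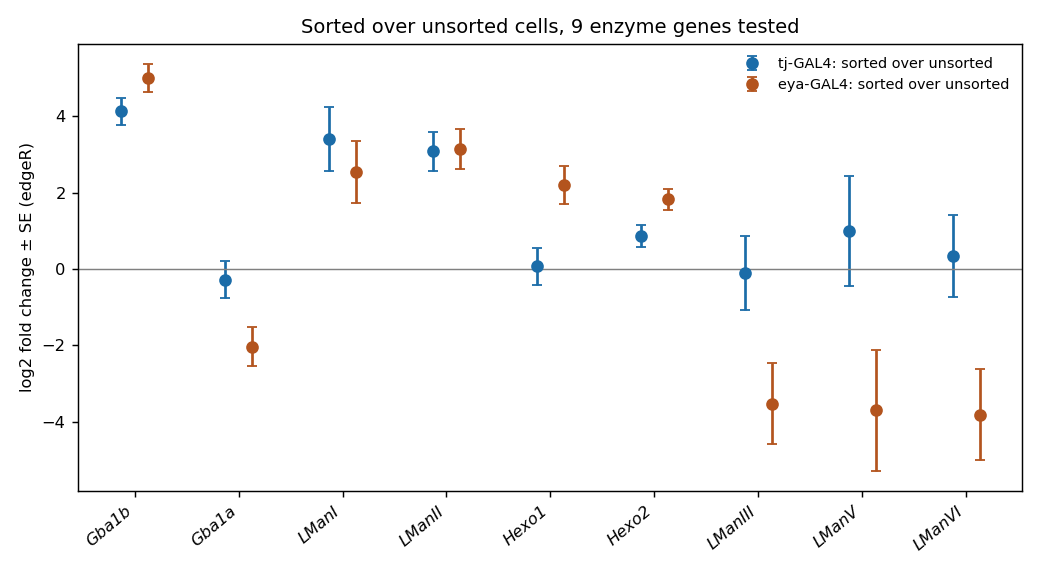
Log2 fold change of sorted over unsorted cells for the 9 enzyme genes tested, from the edgeR fit, for tj-GAL4 (blue) and eya-GAL4 (brown); bars are ± 1 SE, with 2 libraries per group. Gba1b lies at 4.13 and 5.0 and LManII at 3.08 and 3.14. The bars of LManIII, LManV and LManVI are the widest, and they rest on a spread estimated over all groups together.

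Gba1b, the glucocerebrosidase gene with the broader expression, had 67.4 and 55 CPM in tj-GAL4 sorted cells, against 3.72 and 3.22 CPM in tj-GAL4 unsorted cells. It had 74.5 and 85.8 CPM in eya-GAL4 sorted cells, against 2.99 and 2.05 CPM in eya-GAL4 unsorted cells. All 4 sorted libraries were far above all 4 unsorted ones, and no 2 replicates differed by more than 1.46-fold. The log2 fold change was 4.13 ± 0.35 in the tj-GAL4 strain and 5.0 ± 0.37 in the eya-GAL4 strain (SE from the fit of all groups, n = 2 against 2 each). Fitted on the groups compared alone, it was 4.11 ± 0.50 and 5.03 ± 0.27. It stayed between 3.94 and 4.28 in the first strain and between 4.73 and 5.27 in the second when any of the 8 libraries was left out.

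Gba1a, the second glucocerebrosidase gene, was low in every group, with 35 to 194 reads per group. It had 2.02 and 1.94 CPM in tj-GAL4 sorted cells, against 2.79 and 1.96 CPM in tj-GAL4 unsorted cells. It had 0.83 and 1.64 CPM in eya-GAL4 sorted cells, against 6.23 and 4.18 CPM in eya-GAL4 unsorted cells. The eya-GAL4 groups did not overlap, and the gene was 4.11-fold lower in the sorted cells (log2 fold change −2.04 ± 0.51). That call was lost without eya-GAL4 sorted replicate 1 (−1.65), eya-GAL4 unsorted replicate 3 (−1.74) or eya-GAL4 unsorted replicate 4 (−2.32). In the tj-GAL4 strain the log2 fold change was −0.27 ± 0.49 and the groups overlapped.

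The 2 genes therefore took very different shares of the glucocerebrosidase reads. Gba1b made up 97.1% (95% Wilson interval 95.8 to 98.0) and 96.6% (95.5 to 97.4) of them in tj-GAL4 sorted cells. In tj-GAL4 unsorted cells it made up 57.1% (49.7 to 64.2) and 62.1% (50.1 to 72.9). In eya-GAL4 sorted cells the share was 98.9% (97.8 to 99.4) and 98.1% (97.3 to 98.7), against 32.4% (25.4 to 40.3) and 32.9% (25.6 to 41.0) in eya-GAL4 unsorted cells. Unsorted cells of the 2 strains differed in this share by more than the intervals, which cover counting error only.

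The 2 genes lie in the same orientation on chromosome 3R of build dm6, Gba1a at 23700621 to 23702605 and Gba1b at 23704804 to 23708512, with 2198 bases between them. Qsox4, a predicted sulfhydryl oxidase gene, fills that interval, 155 bases from Gba1a and 261 bases from Gba1b, on the same strand. It had 6.52 and 2.31 CPM in eya-GAL4 sorted cells, against 18.4 and 15 CPM in eya-GAL4 unsorted cells. Its log2 fold change was −1.94 ± 0.50 there (adjusted p = 0.017, edgeR) and −0.53 ± 0.49 in the tj-GAL4 strain (adjusted p = 0.46, edgeR). Gba1a and Qsox4 were thus both lower in eya-GAL4 sorted cells, where Gba1b was much higher. In the tj-GAL4 strain neither was called, with −0.27 ± 0.49 for Gba1a. An antisense gene, asRNA:CR44052, shares 786 bases with Gba1b and fell by 1.30 ± 0.43 in eya-GAL4 sorted cells (adjusted p = 0.037, edgeR). The sense of the reads over this stretch cannot be assigned with certainty, because the strand setting was not given in the sources used here.

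LManII was the highest of the 6 mannosidase genes in sorted cells. It had 338 and 227 CPM in tj-GAL4 sorted cells, against 31.9 and 35.0 CPM in tj-GAL4 unsorted cells. It had 315 and 252 CPM in eya-GAL4 sorted cells, against 47.7 and 16.7 CPM in eya-GAL4 unsorted cells. The lowest sorted library was several times above the highest unsorted one. The log2 fold change was 3.08 ± 0.52 in the tj-GAL4 strain and 3.14 ± 0.52 in the eya-GAL4 strain, and the call in the tj-GAL4 strain was lost without tj-GAL4 sorted replicate 1 (2.73). Per kilobase of gene length, LManII averaged 80.8 ± 22.4 CPM in tj-GAL4 sorted cells and 81.1 ± 12.8 CPM in eya-GAL4 sorted cells (SD, n = 2 each), the highest level among the 10 genes in both.

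LManI, its neighbour, had 44.4 and 37.5 CPM in tj-GAL4 sorted cells, against 5.62 and 1.89 CPM in tj-GAL4 unsorted cells. It had 44.0 and 33.1 CPM in eya-GAL4 sorted cells, against 11.6 and 1.74 CPM in eya-GAL4 unsorted cells. Sorted and unsorted libraries did not overlap, but the unsorted replicates differed by 2.98-fold and 6.71-fold. The log2 fold change was 3.42 ± 0.84 in the tj-GAL4 strain and 2.54 ± 0.81 in the eya-GAL4 strain. In the second strain it was 4.46 without eya-GAL4 unsorted replicate 3 and 1.71, not called, without eya-GAL4 unsorted replicate 4. The LManI calls in both strains were also lost without any 1 of the 4 sorted libraries, at 3.25 to 3.54 in the tj-GAL4 strain and 2.33 to 2.73 in the eya-GAL4 strain, and limma did not call the gene in the eya-GAL4 strain (1.96). LManI made up 5.12% (95% Wilson interval 3.46 to 7.50, tj-GAL4 unsorted replicate 2) to 19.6% (17.2 to 22.3, eya-GAL4 unsorted replicate 3) of the reads of the pair in the 8 libraries, and 11.6% to 14.2% in the 4 sorted ones.

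LManI and LManII lie head to head on chromosome 2L, LManI on the minus strand at 10452677 to 10457241 and LManII on the plus strand at 10457658 to 10462472. Only 416 bases separate their starts. RluA-1, named for a pseudouridine synthase family, lies 867 bases beyond the end of LManII on the opposite strand. It had 27.6 and 17.5 CPM in tj-GAL4 sorted cells, against 2.83 and 2.04 CPM in tj-GAL4 unsorted cells. It had 26.2 and 19.6 CPM in eya-GAL4 sorted cells, against 2.30 and 1.74 CPM in eya-GAL4 unsorted cells. RluA-1 thus rose in both sorts, by 3.19 ± 0.41 on the log2 scale in the tj-GAL4 strain (adjusted p = 0.0030, edgeR) and by 3.50 ± 0.41 in the eya-GAL4 strain (adjusted p = 0.00092, edgeR). On the other side ppk10, a gene of the degenerin/epithelial sodium channel family 280 bases from LManI, had log2 fold changes of 0.14 ± 0.64 and −0.28 ± 0.66 (adjusted p = 0.89 and 0.73, edgeR).

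**Figure D3:**
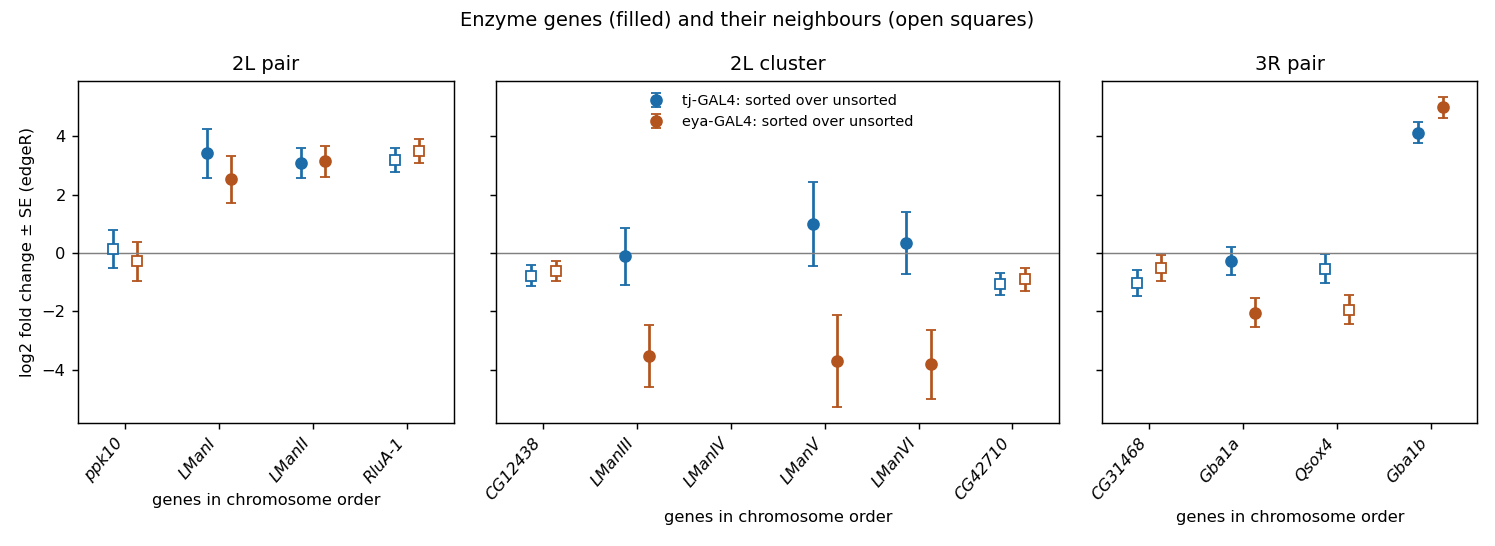
Log2 fold change ± SE of sorted over unsorted cells for enzyme genes (filled circles) and the genes next to them (open squares), in chromosome order, for tj-GAL4 (blue) and eya-GAL4 (brown). LManI, LManII and RluA-1 lie between 2.54 and 3.50 in both strains, Gba1b stands alone beside Gba1a and Qsox4, and LManIV, below the level tested, has no point.

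LManIII, LManIV, LManV and LManVI form a tight cluster on chromosome 2L, all on the minus strand, from 8765273 to 8781252. The gaps between them are 448, 601 and 1397 bases. They are paralogs of one another. How multiply matching reads were counted was not given in the sources used here, so the split of reads within the cluster is uncertain.

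LManVI had 30.3 and 24.3 CPM in tj-GAL4 sorted cells, against 36.8 and 5.81 CPM in tj-GAL4 unsorted cells. It had 5.07 and 13.5 CPM in eya-GAL4 sorted cells, against 241 and 21.8 CPM in eya-GAL4 unsorted cells. The value of 241 CPM, in eya-GAL4 unsorted replicate 3, was 6.55 times the highest value in any other library. LManV had 13 and 12 CPM in tj-GAL4 sorted cells, against 11.8 and 0.31 CPM in tj-GAL4 unsorted cells. It had 1.45 and 10.8 CPM in eya-GAL4 sorted cells, against 152 and 10.3 CPM in eya-GAL4 unsorted cells. The same unsorted library again stood alone, and for LManV the other eya-GAL4 unsorted library lay within the range of the sorted ones.

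LManIII had 4.12 and 3.87 CPM in tj-GAL4 sorted cells, against 6.88 and 1.57 CPM in tj-GAL4 unsorted cells. It had 1.45 and 3.82 CPM in eya-GAL4 sorted cells, against 56.1 and 6.41 CPM in eya-GAL4 unsorted cells. For LManIII and LManVI both eya-GAL4 unsorted libraries were above both sorted ones. LManIV had 0 and 1 reads in tj-GAL4 sorted cells, against 5 and 0 reads in tj-GAL4 unsorted cells, a ratio of unsorted to sorted of 4.94 with an exact 95% counting interval of 0.553 to 234. It had 0 and 0 reads in eya-GAL4 sorted cells, against 67 and 4 reads in eya-GAL4 unsorted cells. With the eya-GAL4 sorted group set at a floor of 3 reads, the pooled LManIV reads were 16.1-fold lower there than in eya-GAL4 unsorted cells. This ratio is not a lower bound. It covers neither counting error nor the spread of the replicates, and 67 of those 71 reads came from replicate 3.

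The log2 fold changes in the eya-GAL4 strain were −3.53 ± 1.06 for LManIII, −3.70 ± 1.58 for LManV and −3.81 ± 1.19 for LManVI. Without eya-GAL4 unsorted replicate 3 they were −1.27 for LManIII, −0.74 for LManV and −1.24 for LManVI, and none of the 3 was called. The calls of LManIII and LManVI were also lost without any single sorted library of either strain. Without eya-GAL4 sorted replicate 1 the values were −3.02 for LManIII, −2.90 for LManV and −3.28 for LManVI. Without eya-GAL4 sorted replicate 2 they were −4.42, −5.80 and −4.69. In the tj-GAL4 strain the log2 fold changes were −0.11 ± 0.97 for LManIII, 1.0 ± 1.45 for LManV and 0.35 ± 1.07 for LManVI. The groups there overlapped for LManIII and LManVI. For LManV the sorted libraries were both above the unsorted ones, the nearest values being 12 and 11.8 CPM. The LManV value in the tj-GAL4 strain was 0.05 without tj-GAL4 unsorted replicate 2 and 5.27, called, without tj-GAL4 unsorted replicate 1, where 13.4% of all genes were called higher.

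In eya-GAL4 unsorted cells, the replicates of the cluster genes lay further apart than those of most other genes. The 2 eya-GAL4 unsorted libraries differed by 8.76-fold for LManIII, 14.8-fold for LManV and 11-fold for LManVI, against a median of 1.18-fold over 12502 genes with reads in both. Only 0.584%, 0.264% and 0.424% of those genes differed by at least as much. Of 7035 genes with at least 10 CPM in eya-GAL4 unsorted replicate 3, 4 were at least 3 times as high as in every other library. These were LManV, LManIII, LManVI and Mal-A4, a maltase gene with 24.6 CPM there and at most 7.64 CPM elsewhere. Mal-A4 was singled out after its values were seen.

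The tj-GAL4 unsorted replicates also differed, by 37.5-fold for LManV, 6.33-fold for LManVI and 4.38-fold for LManIII, with replicate 2 the lower, and 0.521%, 6.08% and 10.7% of genes differed by at least as much there, around a median of 1.70-fold. In tj-GAL4 sorted cells the replicates differed by 1.08-fold for LManV, 1.25-fold for LManVI and 1.06-fold for LManIII, against a median of 1.35-fold. The eya-GAL4 sorted replicates differed by 7.46-fold for LManV, 2.66-fold for LManVI and 2.64-fold for LManIII, against a median of 1.24-fold. Only 0.305%, 3.5% and 3.59% of genes differed by at least as much there. The gut markers summed to 267 CPM in eya-GAL4 unsorted replicate 3 and 30.6 CPM in replicate 4. In the tj-GAL4 strain, replicate 2, with 3293 CPM of gut markers, had the lower cluster levels. Jon25Bii was at 0 in at least 1 library, and the other 9 gut markers had reads in all 8. Accessory gland markers (9 of 9 in the table) summed to 2471 CPM in eya-GAL4 unsorted replicate 3 and 3468 CPM in replicate 4, so the library high in the cluster was the lower one in that list. The part of other cell types in the cluster values was not tested.

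Within the cluster the order of reads was mostly stable while the total moved. LManVI took 63.9% and 60.4% of the cluster's reads in tj-GAL4 sorted cells, 66.1% and 75.5% in tj-GAL4 unsorted cells and 63.6% and 47.9% in eya-GAL4 sorted cells. It had the largest read share of the 4 genes in each of these libraries, and had 53.1% and 56.4% in eya-GAL4 unsorted cells. The 95% Wilson interval was widest in eya-GAL4 sorted replicate 1, at 52.5 to 73.5 with 77 reads. LManV came next except in tj-GAL4 unsorted replicate 2, with 4 reads, and eya-GAL4 sorted replicate 1, where it and LManIII had 14 reads each. LManIV had the fewest reads throughout.

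**Figure D4:**
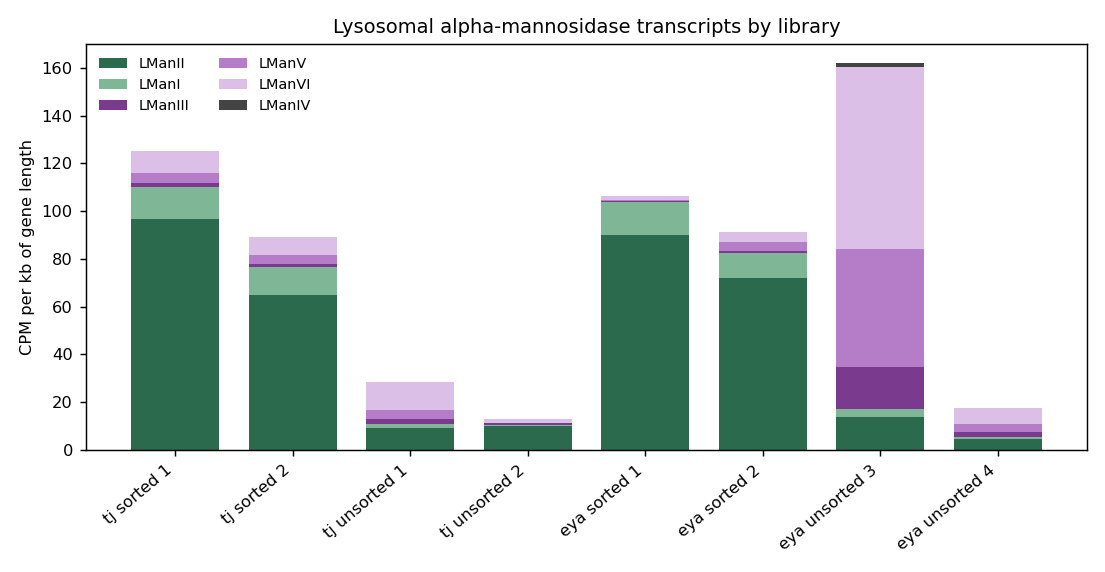
Stacked CPM per kilobase of gene length of the 6 lysosomal mannosidase genes in each of the 8 libraries (linear axis from 0), with LManI and LManII in green and the LManIII to LManVI cluster in purple and grey. The 4 sorted libraries reach 89.3 to 125 CPM per kilobase and are mostly LManII, and the bar of 162 in eya-GAL4 unsorted replicate 3 is mostly LManVI, LManV and LManIII.

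The total of mannosidase transcripts thus mixed a sort-enriched pair with a cluster whose highest level came from 1 unsorted library. Per kilobase, LManI and LManII together had 110 and 76.5 CPM in tj-GAL4 sorted cells, against 10.8 and 10.6 CPM in tj-GAL4 unsorted cells. They had 104 and 82.3 CPM in eya-GAL4 sorted cells, against 17.2 and 5.30 CPM in eya-GAL4 unsorted cells. The cluster had 15.1 and 12.8 CPM per kilobase in tj-GAL4 sorted cells, against 17.7 and 2.43 in tj-GAL4 unsorted cells. It had 2.53 and 8.97 in eya-GAL4 sorted cells, against 145 and 12.3 in eya-GAL4 unsorted cells. The cluster took 11% (95% Wilson interval 10.2 to 11.8) and 13.2% (12.4 to 13.9) of mannosidase reads in tj-GAL4 sorted cells, against 59.8% (57.8 to 61.7) and 17.3% (14.4 to 20.6) in tj-GAL4 unsorted cells. In the eya-GAL4 strain it took 2.17% (1.74 to 2.70) and 8.96% (8.21 to 9.77) in sorted cells, against 88.4% (87.7 to 89.1) and 67.8% (65.2 to 70.3) in unsorted cells.

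Hexo2, the more abundant hexosaminidase transcript, had 48.8 and 48.9 CPM in tj-GAL4 sorted cells, against 24.7 and 29 CPM in tj-GAL4 unsorted cells. It had 74.9 and 83.9 CPM in eya-GAL4 sorted cells, against 23.9 and 20.9 CPM in eya-GAL4 unsorted cells. Neither pair of groups overlapped, and all replicates were within 1.17-fold of each other. The log2 fold change was 0.86 ± 0.28 in the tj-GAL4 strain and 1.83 ± 0.28 in the eya-GAL4 strain. Only the second was called with all libraries in the fit, and limma did not call it (1.09).

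Hexo1 had 15.7 and 15.2 CPM in tj-GAL4 sorted cells, against 7.37 and 22.2 CPM in tj-GAL4 unsorted cells. It had 26.7 and 32.8 CPM in eya-GAL4 sorted cells, against 7.16 and 5.78 CPM in eya-GAL4 unsorted cells. The eya-GAL4 groups did not overlap, while the sorted values of the tj-GAL4 strain lay between the 2 unsorted ones. The log2 fold change was 0.07 ± 0.48 in the tj-GAL4 strain and 2.20 ± 0.50 in the eya-GAL4 strain. The call in the eya-GAL4 strain was lost without eya-GAL4 sorted replicate 2 (2.05), eya-GAL4 unsorted replicate 3 (2.35) or eya-GAL4 unsorted replicate 4 (2.04), and under limma (1.32). Without tj-GAL4 unsorted replicate 2, the library with the high sum of gut markers, the value in the tj-GAL4 strain was 1.04 and was called. Under DESeq2's scaling and in DESeq2 it was −0.02, so its direction there is not settled. Hexo2 made up 71.9% to 78.3% of hexosaminidase reads in 7 libraries and 56.6% (95% Wilson interval 52.8 to 60.3) in tj-GAL4 unsorted replicate 2.

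Hexo1 lies on chromosome 3L at 4288641 to 4291211 and Hexo2 on chromosome X at 8709652 to 8712478. Each overlaps the end of an oppositely oriented gene, Hexo1 by 4 bases with CG15012 and Hexo2 by 7 bases with CG2004. CG15012 had a log2 fold change of 0.91 ± 0.33 in the tj-GAL4 strain (adjusted p = 0.12, edgeR) and rose by 2.11 ± 0.35 in the eya-GAL4 strain (adjusted p = 0.0032, edgeR). CG2004 had 0.79 ± 0.36 (adjusted p = 0.17, edgeR) and rose by 1.44 ± 0.36 (adjusted p = 0.015, edgeR).

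Levels per kilobase put LManII first and Gba1b and Hexo2 next in both sorted groups. In tj-GAL4 sorted cells Gba1b had 26.2 ± 3.8 and Hexo2 22.8 ± 0.033 CPM per kilobase, and in eya-GAL4 sorted cells Gba1b had 34.3 ± 3.4 and Hexo2 37.1 ± 3.0 (SD, n = 2 each). The ranges of Hexo2 and Gba1b overlapped in eya-GAL4 sorted cells and not in tj-GAL4 sorted cells. In tj-GAL4 unsorted cells Hexo2 had the highest mean, 12.5 ± 1.4 CPM per kilobase, and did not overlap LManII at 9.55 ± 0.63. It did overlap LManVI at 6.74 ± 6.93, which was slightly above it in replicate 1. In eya-GAL4 unsorted cells the first 5 places, LManVI, LManV, Hexo2, LManIII and LManII, overlapped from each place to the next. Gba1b ranked 9 of 10 there, at 1.08 ± 0.29 CPM per kilobase.

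Direct comparison of the 2 sorted groups called 0 of the 9 genes, with 0.111% of all genes called. At an unadjusted p under 0.05 (edgeR) there were 1 of the 9 and 1356 of the 12570 genes tested. DESeq2 and limma called 0 of the 9 as well. The log2 differences of tj-GAL4 sorted over eya-GAL4 sorted cells ran from −0.95 ± 0.48 for Hexo1 to 1.54 ± 1.10 for LManVI. Gba1b differed by −0.39 ± 0.31 and LManII by −0.01 ± 0.48. Fitted on these 4 libraries alone, LManV and LManVI were called higher in tj-GAL4 sorted cells and Hexo1 lower, in a fit that called 10.9% of all genes. Between the unsorted groups 0 of the 9 were called, with 0.0716% of all genes called. At an unadjusted p under 0.05 (edgeR) there were 5 of the 9 and 1481 of the 12570 genes tested. DESeq2 called LManIII and limma LManV there, each lower in tj-GAL4 unsorted cells, and these tools called 3.09% and 1.36% of all genes.

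The difference of the 2 enrichments, tj-GAL4 minus eya-GAL4, was called by edgeR for 0 of the 9 genes and 0.00% of all genes, with 5 of the 9 and 1841 of all genes at an unadjusted p under 0.05. It was −2.13 ± 0.69 on the log2 scale for Hexo1, −0.96 ± 0.39 for Hexo2 and 1.76 ± 0.70 for Gba1a. It was −0.86 ± 0.45 for Gba1b and −0.06 ± 0.68 for LManII. Limma called 1 of the 9 (LManV) and DESeq2 0, against 51 and 346 of all genes. Without tj-GAL4 unsorted replicate 1, the difference was called for Hexo1, Gba1a, LManIII, LManV and LManVI, in a fit that called 33.7% of all genes. With all libraries, the larger fold changes of Hexo1 and Hexo2 in the eya-GAL4 strain were not shown to differ from those in the tj-GAL4 strain.

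Genes whose levels moved most like each enzyme gene were found by the root mean square difference of log2(CPM + 1) profiles, each centred over the 8 libraries. Gba1b was nearest to SP1029, an aminopeptidase gene, at 0.13, and to the cuticle protein gene Cpr97Eb at 0.20. SP1029 had 54.1 and 37.1 CPM in tj-GAL4 sorted cells, against 3.31 and 2.36 CPM in tj-GAL4 unsorted cells, and 65.3 and 65.5 CPM in eya-GAL4 sorted cells, against 2.37 and 1.29 CPM in eya-GAL4 unsorted cells. LManII was nearest to cv-2, which encodes a BMP-binding protein, at 0.18, and to the fatty acid synthase gene FASN1 at 0.26. LManI was nearest to MFS3, of the major facilitator family of transporters, at 0.45 and to LManII at 0.46.

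Hexo2 was nearest to veli, which encodes a PDZ domain protein, at 0.10 and to Hacl at 0.11. Hexo1 was nearest to the glyoxalase gene Glo1 at 0.13 and the small GTPase gene Rab18 at 0.14. Glo1 repeated the Hexo1 pattern, with 15.1 and 13.4 CPM in tj-GAL4 sorted cells, against 7.48 and 19.7 CPM in tj-GAL4 unsorted cells. The cluster genes were nearest to each other: LManIII to LManVI at 0.46 and LManV to LManVI at 0.58. The nearest gene to LManIII outside the cluster was Mal-A4 at 0.75. Gba1a was nearest to 2 noncoding RNA genes, lncRNA:CR43097 at 0.20 and asRNA:CR45926 at 0.25. Low counts leave Gba1a profiles with little detail.

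The other hydrolases of the lysosome were counted as a list chosen with earlier results known. Of 33 such genes tested, 7 rose and 2 fell in tj-GAL4 sorted cells, with a median log2 fold change of 0.92, and 19 rose and 2 fell in eya-GAL4 sorted cells, with a median of 2.19. Beside this and the following lists stand the shares over all genes, 8.98% higher and 2.38% lower in the tj-GAL4 strain and 28.0% higher and 20.0% lower in the eya-GAL4 strain. Ect3, a beta-galactosidase gene, averaged 202 ± 44.2 CPM in tj-GAL4 sorted and 12.9 ± 3.1 CPM in tj-GAL4 unsorted cells, and 258 ± 30.1 CPM in eya-GAL4 sorted and 5.50 ± 0.027 CPM in eya-GAL4 unsorted cells (SD, n = 2 each). It rose by 3.97 ± 0.36 and 5.55 ± 0.39 on the log2 scale (adjusted p = 0.0014 and 0.00031, edgeR). CG3376, of the sphingomyelinase family, rose by 3.34 ± 0.40 and 5.30 ± 0.44, and the cysteine protease gene 26-29-p by 3.31 ± 0.41 and 4.92 ± 0.44. CG1827, a relative of aspartylglucosaminidase, rose by 5.03 ± 0.57 in eya-GAL4 sorted cells. Ppt1, the palmitoyl-protein thioesterase gene, rose by 2.78 ± 0.41 in tj-GAL4 sorted cells, but did not pass when tj-GAL4 sorted replicate 1 was left out (adjusted p = 0.053, edgeR).

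Of 24 genes for lysosomal membrane proteins and trafficking, 3 rose and 0 fell in tj-GAL4 sorted cells (median 0.71), and 12 rose and 0 fell in eya-GAL4 sorted cells (median 1.26), against 8.98% and 28.0% of all genes higher. Npc2a and Npc1a, which carry sterols out of the lysosome, rose by 5.08 ± 0.46 and 2.61 ± 0.36 in eya-GAL4 sorted cells, where Lamp1 rose by 2.84 ± 0.46 and Arl8, a GTPase of lysosome movement, by 2.83 ± 0.48. In tj-GAL4 sorted cells Npc2a rose by 2.11 ± 0.41, Npc1a by 1.58 ± 0.35 and the lysosomal transporter gene spin by 1.88 ± 0.42. Each of these 3 calls was lost without tj-GAL4 sorted replicate 1. Those of Npc1a and spin were also lost when each eya-GAL4 library in turn was left out, and that of spin without tj-GAL4 sorted replicate 2.

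Enzymes of N-glycan processing in the endoplasmic reticulum and Golgi served as the counterparts of the lysosomal mannosidases in glycoprotein synthesis. Of 14 tested, 2 rose and 0 fell in tj-GAL4 sorted cells (median 0.58), and 4 rose and 1 fell in eya-GAL4 sorted cells (median 0.51), shares near those of 8.98% and 28.0% over all genes. The Golgi mannosidase gene alpha-Man-IIb rose by 1.69 ± 0.41 and the glucosidase II subunit gene GCS2beta by 1.54 ± 0.37 in tj-GAL4 sorted cells, and each call was lost without any 1 of 6 libraries, with adjusted p up to 0.26 and 0.22 (edgeR). In eya-GAL4 sorted cells GCS2beta rose by 2.86 ± 0.39, the class I mannosidase gene alpha-Man-Ia by 2.0 ± 0.37, the core fucosyltransferase gene FucT6 by 1.76 ± 0.35 and Edem2 by 1.24 ± 0.28. The last 3 were each lost without at least 1 library, with adjusted p up to 0.057, 0.064 and 0.087 (edgeR).

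Among 19 genes of sphingolipid metabolism, which supplies and uses the ceramide that glucocerebrosidase releases, 3 rose and 0 fell in tj-GAL4 sorted cells (median 0.50), and 14 rose and 1 fell in eya-GAL4 sorted cells (median 1.89), against 8.98% and 28.0% of all genes higher. The sphingosine kinase gene Sk2 rose by 2.25 ± 0.34 in tj-GAL4 sorted and 2.74 ± 0.35 in eya-GAL4 sorted cells. CDase, the ceramidase gene, rose by 2.19 ± 0.47 and ghi by 1.42 ± 0.38 in tj-GAL4 sorted cells, and ghi by 2.63 ± 0.40 in eya-GAL4 sorted cells. The serine palmitoyltransferase genes lace and Spt-I rose by 3.78 ± 0.65 and 4.36 ± 0.79 in eya-GAL4 sorted cells. The calls of Sk2, CDase and ghi in tj-GAL4 sorted cells were lost without at least 1 library, with adjusted p up to 0.055, 0.16 and 0.28 (edgeR).

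The list counts moved with the libraries and the tool. Without tj-GAL4 unsorted replicate 2, 17 of the 33 hydrolases rose and 3 fell, 11 and 0 of the 24 membrane and trafficking genes did, 4 and 1 of the 14 glycan processing genes and 12 and 0 of the 19 sphingolipid genes. In the same fit 25.0% of all genes were called higher and 10.8% lower. Without tj-GAL4 sorted replicate 1, the genes that rose numbered 3, 0, 0 and 0 in the 4 lists, with 2.06% of all genes. On the tj-GAL4 libraries alone they numbered 2, 0, 0 and 0 (1.90% of all genes), and under limma 4, 0, 0 and 0 (2.69%). In the eya-GAL4 strain, leaving out eya-GAL4 unsorted replicate 3 gave 16 higher and 1 lower hydrolase, 6 and 0 membrane and trafficking genes, 2 and 0 glycan processing genes and 7 and 1 sphingolipid genes, with 13.3% and 4.59% of all genes. Without eya-GAL4 unsorted replicate 4 the genes that rose numbered 11, 4, 1 and 4 (9.21% of all genes), and under limma 10, 1, 1 and 2 (7.24%).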

How the data were processed

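Poly(A)+ RNA libraries of 4 groups of 2 were compared. Per the submitters' processing notes, reads were handled on build dm6 with Bowtie 1.2.2, HTSeq, DESeq2 and FastQC. Their strand setting, treatment of multiple matches and annotation release were not given in the sources used here. The deposited table holds raw counts per gene, per the file headers from HTSeq. It also holds RPM computed by the authors, used here only for 1 alternative. A further 20 columns of per-sample or averaged values were not used. Both unsorted eya-GAL4 columns carry numbers (3 and 4) that differ from their sample titles, so they were assigned to the group alone and paired with nothing. Positions come from the reference annotation of the same build.

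Counts were tested with edgeR 4.0.16 (R 4.3.3; TMM scaling, quasi-likelihood F test, two-sided, 4 residual degrees of freedom) in 1 fit of all 4 groups over 12570 genes with at least 1 CPM in at least 2 libraries. Calls are at a Benjamini-Hochberg adjusted p under 0.05 over all genes tested. The SE of a log2 fold change is its absolute value over the square root of F, so it rests on the spread of all 4 groups. The code was tested on simulated data. CPM uses TMM-scaled library sizes, and CPM per kilobase divides by the deposited gene length. Shares carry 95% Wilson intervals, which cover counting error only. The alternatives were RLE scaling, DESeq2 1.42.0, limma 3.58.1 on log2(RPM + 1), no filter, only the groups compared, a replicate block, and each library left out; the counts of the lists without eya-GAL4 unsorted replicate 3 were added after seeing the data. The 10 genes and the gene lists were chosen with earlier results of these data known. Besides the 10 genes, the text names tj and eya, the 4 called genes of each list with the smallest p per comparison, the 2 nearest profiles of each tested gene among genes with a mean of at least 5 CPM and a symbol other than a plain CG or CR number, and neighbouring or overlapping genes on the chromosome, which were added after seeing the data. Replicates are biological per the labels.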

Additional observations from a re-analysis of the deposited data

How the results depend on the processing

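Of 243 log2 fold changes of the 9 genes recomputed under alternatives, 200 kept their direction and side of the threshold, 29 lost the call, 7 gained one and 7 reversed. The reversals, none of a called value, were in the tj-GAL4 strain. Over the libraries left out there, Gba1a ran from −0.52 to 0.0029, LManIII from −0.81 to 1.33, LManVI from −0.46 to 2.22 and Hexo1 from −0.53 to 1.04, with the ends set by tj-GAL4 unsorted replicate 1 or 2. LManIII was 0.23 with the replicate block, and Hexo1 was −0.015 under both RLE scaling and DESeq2. Gba1b kept its call in both strains in every fit run.

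Leaving out 1 library at a time, the genes called higher in tj-GAL4 sorted cells numbered 1 to 5, those called higher in eya-GAL4 sorted cells 3 to 5 and those called lower there 0 to 4. They numbered 0 to 1 between the sorted groups, 0 to 4 between the unsorted groups and 0 to 5 for the difference of the enrichments, the last 2 highest without tj-GAL4 unsorted replicate 1, where 31.5% and 33.7% of all genes were called. The number of all genes called moved in these fits too, so nothing about the 9 genes is read from these counts. In eya-GAL4 sorted cells the counts of the 9 genes fell without an eya-GAL4 library or a tj-GAL4 sorted library. Fewer of all genes were called higher and lower in each of these fits as well. Each of the 9 genes kept its direction there, with Gba1b from 4.73 to 5.27, LManII from 2.56 to 4.08 and LManIII from −4.42 to −1.27 on the log2 scale. Limma called 2 genes higher in eya-GAL4 sorted cells (5 by edgeR), with 7.24% of all genes, and 1 between unsorted groups, with 1.36%. It called 1 for the difference, with 0.406% of all genes. DESeq2 called 1 between unsorted groups, with 3.09% of all genes. Between the sorted groups, the 4 libraries fitted alone gave 3 calls, with 10.9% of all genes, and so did the replicate block, with 10.2%. Same-numbered libraries share only a number: their deviations correlated by −0.39 in the tj-GAL4 strain and 0.061 between the sorted groups. The block changed no other count of the 9 genes, and could not be fitted to eya-GAL4 unsorted libraries, numbered 3 and 4.

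Over all genes, tj-GAL4 calls were 1129 higher and 299 lower by edgeR and 1472 and 1058 by DESeq2; eya-GAL4 calls were 3516 and 2512 by edgeR and 910 and 1337 by limma, whose median log2 fold change was −0.47. The median in the tj-GAL4 strain was −0.08 with TMM and −0.18 with RLE scaling. With 2 libraries per group, differences of the size seen for Hexo2 between the strains are not resolved, and Gba1a and LManIV are limited by low counts. The causes of these changes were not tested.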
